A study of Drosophila melanogaster with 3 samples.

Results

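The reproducible NK7.1 peaks examined here lay beside gene starts without lying on them, and every coding transcription start site (TSS) within 1 kb of their summits read in the same direction. A peak was kept when protein-coding TSSs of one strand only lay within 1 kb of its summit and the nearest of them was over 150 and at most 1000 bp away. The rule used summit position and gene models alone, with no signal value. It kept 626 of the 2475 reproducible peaks, or 25.3%, and these are called promoter-proximal peaks. Peaks within 150 bp of a TSS of one strand, called core promoter peaks, numbered 342, and a further 558 peaks had coding TSSs of both strands within 1 kb. The remaining 949 summits lay over 1 kb from any coding TSS.

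The study was chromatin immunoprecipitation with sequencing (ChIP-seq) of whole Drosophila melanogaster embryos at 0 to 24 hours of development, males and females pooled, in 3 biological replicates of 1 group, per the labels. All embryos came from a transgenic strain that carried NK7.1 with eGFP at its C-terminus, and chromatin was sheared by sonication and precipitated with anti-GFP. The age range spans nearly all of embryogenesis and every tissue, so a peak gives neither a stage nor a cell type. Libraries of untagged embryos or of input chromatin were not analysed here. Read counts are not part of the peak lists, and library depth is therefore unknown.

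NK7.1 is a homeobox gene of the NK-like group. Homeodomain proteins bind short DNA words that often contain TAAT, and most act as transcription factors at enhancers and promoters. A core promoter is the short stretch around the TSS where the general transcription machinery assembles. The sequence a short way upstream of it, the proximal promoter, holds binding sites for regulators of the gene, while the sequence on its downstream side is usually 5' UTR, first intron or coding exon.

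The DNA under the summits is shown first, because its composition set these peaks apart from their flanks, as reported further on. The bases within 50 bp of the summit are given for 6 of the 8 strongest promoter-proximal peaks and for the peaks beside NK7.1 itself. Bases come from the Release 6 (dm6) genome and run 5' to 3' on the strand of the nearest gene. Capitals mark the 10 words of 6 bases that led the list of words commoner at summits than at flanks on either strand, which are spelled out with their shares in the account of words below.
ph-p, chrX:2137277-2137377, minus strand, 472 bp upstream of the TSS, in an intron: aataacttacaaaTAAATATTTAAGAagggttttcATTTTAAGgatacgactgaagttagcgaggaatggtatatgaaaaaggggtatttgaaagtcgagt
Lk6, chr3R:11760991-11761091, minus strand, 962 bp upstream of the TSS, in an intron: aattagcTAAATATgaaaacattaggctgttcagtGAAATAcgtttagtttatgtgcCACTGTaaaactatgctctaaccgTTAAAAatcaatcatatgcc
CG31145, chr3R:23669791-23669891, minus strand, 182 bp upstream of the TSS, intergenic: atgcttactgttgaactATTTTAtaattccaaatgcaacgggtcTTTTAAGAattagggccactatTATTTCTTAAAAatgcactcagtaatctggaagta
CG9663, chr2L:3302117-3302217, minus strand, 963 bp downstream of the TSS, in an intron: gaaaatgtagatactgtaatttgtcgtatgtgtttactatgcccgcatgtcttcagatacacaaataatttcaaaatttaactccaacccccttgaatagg
larp, chr3R:28326559-28326659, minus strand, 345 bp upstream of the TSS, in an intron: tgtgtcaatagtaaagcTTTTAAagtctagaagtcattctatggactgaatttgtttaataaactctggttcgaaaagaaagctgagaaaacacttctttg
gish, chr3R:16280677-16280777, plus strand, 162 bp upstream of the TSS, in an intron: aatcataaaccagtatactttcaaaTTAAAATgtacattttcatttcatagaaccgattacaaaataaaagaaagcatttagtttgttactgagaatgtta
NK7.1, chr3R:14373331-14373431, minus strand, 430 bp upstream of the TSS, intergenic: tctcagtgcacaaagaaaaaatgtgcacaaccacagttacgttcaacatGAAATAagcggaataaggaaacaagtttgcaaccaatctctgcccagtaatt
NK7.1, chr3R:14370690-14370790, minus strand, 732 bp upstream of the TSS, in an intron: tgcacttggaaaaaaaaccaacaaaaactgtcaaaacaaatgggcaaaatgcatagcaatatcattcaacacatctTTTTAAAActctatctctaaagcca
The window at ph-p held 6 of the 10 words and the window at CG9663 held 0. The GC content of the 8 windows ran from 23.8% at gish to 38.6% at the stronger NK7.1 peak.

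Promoter-proximal peaks made up a larger share of the reproducible set than of the lower-ranked entries of the pooled list. The reproducible set is the strongest 9.18% of the 26951 entries of the authors' pooled list, which they label as peaks and background. It was compared with the 23895 pooled entries that overlap no reproducible peak, called low-ranked peaks. These can therefore include background regions as well as weaker peaks, and no attempt was made to separate them. Promoter-proximal summits were 626 of 2475 reproducible peaks (25.3%, exact 95% interval 23.6 to 27.1) and 5031 of 23895 low-ranked peaks (21.1%, interval 20.5 to 21.6). The odds ratio was 1.27 (95% interval 1.15 to 1.40), with an adjusted p of 3.36e-06 in a two-sided Fisher's exact test over 6 such comparisons. The intervals and p-values here cover the counting of peaks only, and peaks are not independent replicates. Signal value is the authors' own score for a peak, and it is compared only between peaks of the same list. By rank in the pooled list 29 of the first 100 peaks were promoter-proximal, and the share was 33.2% from there to rank 500. It was 20.97% in the last interval of the reproducible set, which starts at rank 1651, and 20.7% of the low-ranked peaks from there to rank 5000. The excess therefore lay in the upper ranks of the reproducible set.

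Each replicate's own list gave a similar difference. In the 2475 strongest peaks of replicates 1, 2 and 3 the promoter-proximal share was 25.1%, 26.2% and 25.01%, against 19.4%, 20.9% and 21.3% of the remaining peaks of the same lists. The 3 strongest-peak shares did not overlap the 3 others. The means were 25.4 ± 0.665% and 20.5 ± 0.973% (SD, n = 3), a difference of 4.89 percentage points, positive in 3 of 3 replicates. The exact permutation test over the signs of the 3 differences gave p = 0.25, two-sided, the smallest value that 3 replicates allow.

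Most promoter-proximal peaks lay on the upstream side of the gene start. Of the 626 summits, 456 (72.8%, interval 69.2 to 76.3) were upstream of the nearest TSS and 170 were downstream, whereas 2240 of the 5031 low-ranked summits under the same position rule (44.5%, interval 43.1 to 45.9) were upstream. The odds ratio was 3.34 (95% interval 2.78 to 4.02), with an adjusted p of 2.73e-41 in Fisher's exact test. The upstream peaks lay closer to the gene than the downstream ones. Their median distance was 331.5 bp, with quartiles of 217 and 531 bp, while downstream peaks had a median of 643.5 bp and quartiles of 429 and 844 bp. Low-ranked summits had medians of 450 bp upstream and 555 bp downstream.

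The upstream excess was greatest next to the core promoter. At up to 250 bp from the TSS, 155 of 173 promoter-proximal summits (89.6%) were upstream, against 52.1% of low-ranked summits. Between 250 and 500 bp the upstream count was 178 of 216 (82.4%), against 48.9% of low-ranked summits. At 501 to 1000 bp it was 123 of 237 (51.9%), against 39.2%. Expressed per 100 bp of sequence, upstream summits thinned out over the 3 intervals as 155, 71.2 and 24.6, while downstream summits numbered 18.0, 15.2 and 22.8. Thus density fell at each step on the upstream side and did not do so on the downstream side, as the plot of summit positions shows. The median signal value was 168, 155 and 139 in the same 3 distance intervals.

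**Figure D1:**
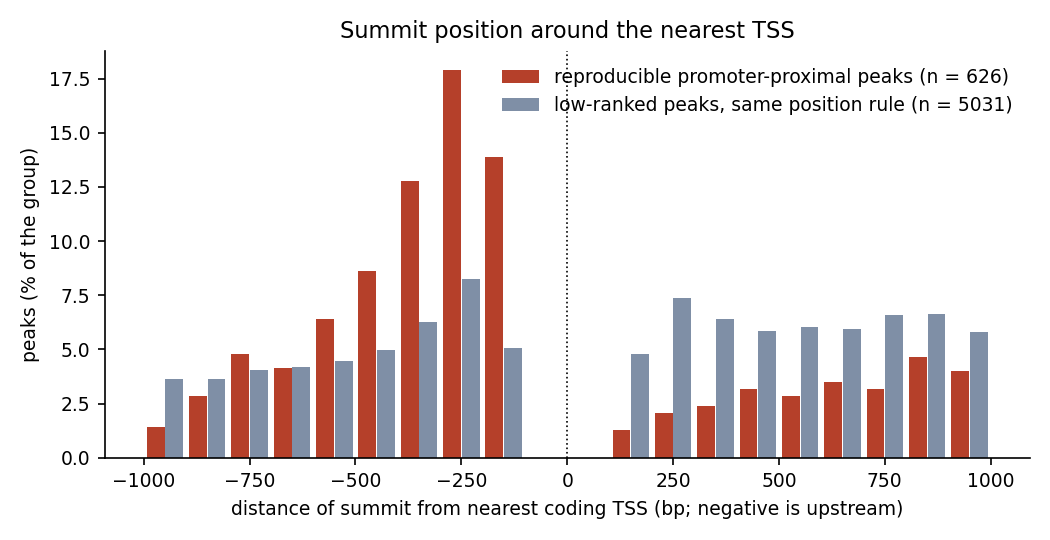
Position of peak summits around the nearest protein-coding TSS, in bins of 100 bp (x axis, bp, negative upstream), as a percentage of each group (y axis). Promoter-proximal reproducible peaks (red, n = 626) pile up upstream of the TSS and thin out with distance, and low-ranked peaks under the same rule (grey, n = 5031) spread more evenly over both sides; the empty centre is the 150 bp left out by the rule.

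Position and peak strength went together. Upstream summits were 26 of the 29 promoter-proximal peaks among the first 100 ranks (89.7%), and 81.2% of those from there to rank 500. In the next intervals, which end at ranks 1000, 1650 and 2475, the share was 72.5%, 66.7% and 69.4%. Past the end of the reproducible set it was 58.8% up to rank 5000 and between 39.9% and 46.6% in the 4 deeper intervals. Against low-ranked peaks no deeper than rank 5000, a comparison added after seeing the data, the odds ratio was 1.88 with an adjusted p of 2.58e-06 in Fisher's exact test. The difference was thus smaller, by over 1.5 times in the odds ratio, against the nearest ranks than against all low-ranked peaks. The median signal value was 158 for upstream and 133 for downstream promoter-proximal peaks.

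**Figure D2:**
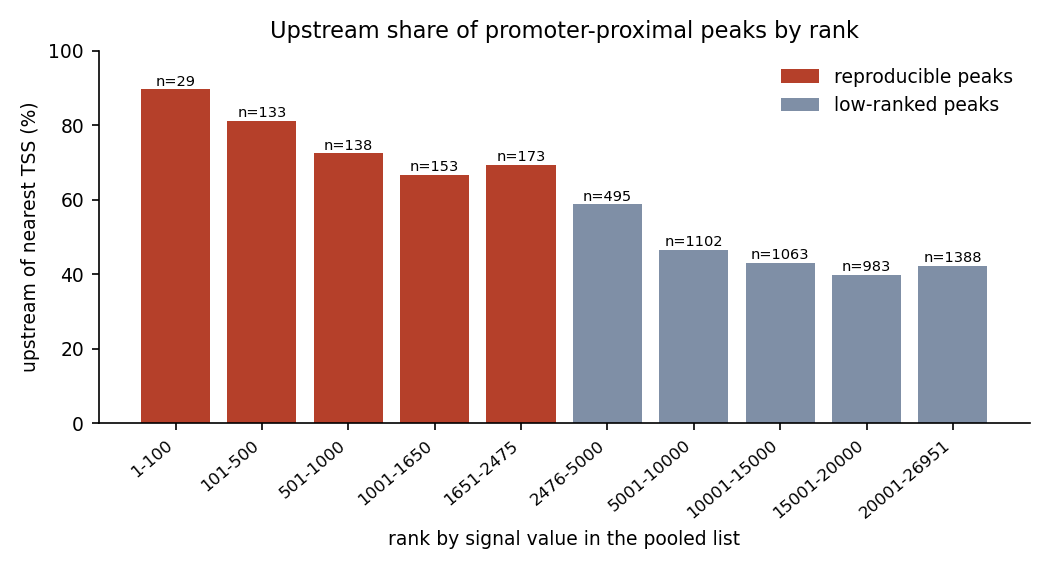
Share of promoter-proximal peaks that lie upstream of the nearest TSS (y axis, %) by rank of signal value in the pooled list (x axis), with the number of promoter-proximal peaks in each interval above its bar. The share is 89.7% in the first 100 ranks, 69.4% at the end of the reproducible set (red) and 58.8% in the next interval of low-ranked peaks (grey).

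The 3 replicates showed the same side. Among promoter-proximal peaks in each replicate's 2475 strongest, 74.7%, 69.3% and 70.1% were upstream, against 49.4%, 42.6% and 38.5% of those among its remaining peaks. The mean shares were 71.4 ± 2.90% and 43.5 ± 5.53% (SD, n = 3). Their difference was 27.8 points, higher in 3 of 3 replicates, and the exact permutation p was 0.25, the smallest possible.

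**Figure D3:**
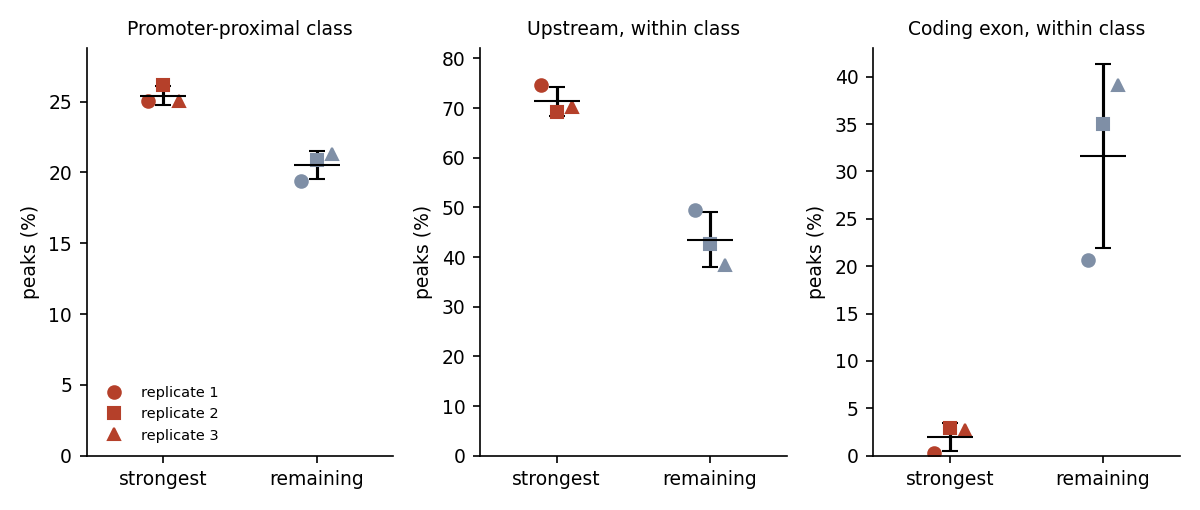
Shares of peaks in each replicate's own list (y axes, %), for its 2475 strongest peaks (red) and its remaining peaks (grey); symbols are replicates 1 to 3, and bars are the mean with SD over the 3. In all 3 replicates the strongest peaks are more often promoter-proximal (left), more often upstream within that class (middle) and less often in coding exons (right).

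Promoter-proximal peaks were almost absent from coding exons. Only 5 of 626 summits (0.799%) lay in coding sequence, at CG44812, Hakai, CG32195, Df31 and Echs1, all downstream of the TSS. Among low-ranked peaks under the same rule, 1626 of 5031 (32.3%) lay in coding exons, and the odds ratio was 0.0169 (95% interval 0.00698 to 0.0407) with an adjusted p of 1.06e-88 in Fisher's exact test. In the replicates' own strongest peaks the share was 0.323%, 2.93% and 2.75%, against 20.7%, 35.1% and 39.1% of the remaining peaks. The strongest peaks of replicate 1 held the lowest share, and the shares of the 2 sets did not overlap. Against low-ranked peaks no deeper than rank 5000, where 8.28% lay in coding exons, the odds ratio was 0.0892, with an adjusted p of 4.40e-10 in Fisher's exact test. Because coding exons lie mostly downstream of a TSS, the side of the summits was also compared outside them in both groups, again after seeing the data. There, 73.4% of 621 promoter-proximal summits and 57.7% of 3405 low-ranked summits were upstream, and the odds ratio was 2.03, with an adjusted p of 1.59e-13 in Fisher's exact test.

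Introns held the largest group of these peaks. The summit lay in an intron of a coding gene for 357 peaks (57.0%), between genes for 203 (32.4%), in a 5' UTR for 43 (6.87%), in an exon of a non-coding gene for 11, in a 3' UTR for 6 and in an intron of a non-coding gene for 1. An intronic summit could still be upstream, because many fly genes have several promoters and a later promoter lies inside the gene. Of the 456 upstream peaks, 207 (45.4%) lay within the span of the gene whose TSS was nearest, 42 lay within another gene only, and 207 lay outside coding genes. Genes with several TSSs were the nearest gene of 419 of 626 peaks (66.9%), against 50.3% of low-ranked peaks under the same rule and 26.5% of all coding genes. These shares are given as a description, since a gene with more TSSs offers more sequence that meets the rule.

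A non-coding promoter under the summit was rare. The rule considered coding TSSs alone, and a TSS of a non-coding gene lay within 150 bp of 10 of 626 summits (1.60%), against 87 of 5031 low-ranked summits (1.73%). The odds ratio was 0.923 (95% interval 0.477 to 1.78), with an adjusted p of 1 in Fisher's exact test, and it passed 1 when the distance rule was widened to start just beyond 100 bp (1.18). The strongest of the 10 peaks had a signal value of 234 and lay 66 bp from the TSS of Uhg4, a host gene of small nucleolar RNAs, and 549 bp upstream of Boot. A tRNA gene for threonine lay 77 bp from 1 summit, near CG31279, and the other 8 were long non-coding RNAs, 6 of them named as antisense.

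Neighbouring peaks were commoner than at core promoters. Another reproducible summit lay within 1 kb of 111 of 626 promoter-proximal peaks (17.7%) and of 25 of 342 core promoter peaks (7.31%), against 11.9% of all reproducible peaks. The odds ratio was 2.73 (95% interval 1.73 to 4.31), with an adjusted p of 6.70e-06 in Fisher's exact test. The nearest neighbour was itself promoter-proximal for 73 of the 111, a core promoter peak for 19 and a peak over 1 kb from a TSS for 14. For the other 5 it was a peak with coding TSSs of both strands within 1 kb. In 106 of 111 cases it lay by the same gene. The gap between the summits had a median of 226 bp and a minimum of 199 bp, so many neighbours were intervals that overlapped. Among peaks that overlapped no other reproducible peak, an alternative added after seeing the data, 51 of 566 (9.01%) had a companion, against 14 of 331 core promoter peaks (4.23%). The odds ratio was then 2.24, with an adjusted p of 0.00890 in Fisher's exact test.

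Support by all 3 replicates was more frequent than at core promoters, and so was a high signal. Support by a replicate means that one of the replicate's own 2475 strongest peaks covered 1 bp or more of the peak. All 3 replicates supported 402 of 626 promoter-proximal peaks (64.2%, interval 60.3 to 68.0) and 170 of 342 core promoter peaks (49.7%, interval 44.3 to 55.1), and the figure for all reproducible peaks was 57.7%. The odds ratio was 1.82 (95% interval 1.39 to 2.37), with an adjusted p of 1.89e-05 in Fisher's exact test. The median signal value was 150 for promoter-proximal peaks, with quartiles of 113 and 221, and 126 for core promoter peaks. Within quartiles of signal value, from weakest to strongest, the supported share was 7.50%, 38.4%, 87.0% and 100% of promoter-proximal peaks, against 2.75%, 34.9%, 84.7% and 98.7% of core promoter peaks. The adjusted p of Fisher's exact test was 0.169, 0.806, 0.816 and 0.335 in these quartiles, so the difference did not pass the threshold of 0.05 once signal was held within a quartile.

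Replicates 1, 2 and 3 supported 83.4%, 85.0% and 84.7% of the promoter-proximal peaks, a mean of 84.3 ± 0.845% (SD, n = 3). For core promoter peaks the values were 77.5%, 71.6% and 79.8%, a mean of 76.3 ± 4.22%. At least 2 replicates supported 557 of the 626 peaks, and 1 peak, 216 bp upstream of CG17065, had no support. Of the 60 promoter-proximal peaks that overlapped another reproducible peak, 27 overlapped a stronger one. All 27 were supported by all 3 replicates and could share the replicate peak of the stronger neighbour. Without such peaks the odds ratio of support was 1.71, with an adjusted p of 0.000127 in Fisher's exact test.

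The strongest promoter-proximal peaks held high ranks in every replicate, as the plot of their ranks shows. The strongest lay in an intron 207 bp upstream of a px TSS. The gene px (plexus) acts in wing vein patterning. That peak had a pooled signal value of 1482 and ranked 3 in the pooled list. Its signal value was 489, 465 and 525 in replicates 1, 2 and 3, and its ranks were 3, 4 and 3. The replicates therefore placed it almost identically.

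At ph-p, which encodes a subunit of the Polycomb repressive complex PRC1, the upstream peak had a pooled signal value of 1122 and ranked 9, 6 and 8 in replicates 1, 2 and 3. A weaker peak, of signal value 204.5, lay 609 bp away in the 5' UTR, 435 bp downstream of the TSS, with ranks of 349, 466 and 433. The paralogue ph-d, its neighbour on the X chromosome, had a peak 759 bp upstream, of signal value 189. Both polyhomeotic genes thus had promoter-proximal peaks, with the ph-p peak much the stronger in every replicate. The peak 962 bp upstream of Lk6, a kinase that phosphorylates the translation initiation factor eIF4E, had a signal value of 1081 and ranked 12, 12 and 6. The next were 233 bp upstream of CG1888 (974) and 182 bp upstream of CG31145 (896), which ranked 15, 10 and 9 and 14, 16 and 19. A downstream position was the exception among these peaks. The peak of signal value 866 in an intron of CG9663, 963 bp downstream of the TSS, ranked 19, 26 and 12, and the only other downstream peak of the 15 strongest lay 946 bp inside CG31635 (586).

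Several of the other strong peaks lay by genes of known function. The RNA-binding protein gene larp had a peak 345 bp upstream, of signal value 793, with ranks of 24, 21 and 18. The casein kinase gene gish had one 162 bp upstream, of signal value 745, with ranks of 22, 37 and 22. Sox14, a SOX-family transcription factor gene of the ecdysone response, had one 245 bp upstream, of signal value 701, with ranks of 26, 51 and 25. All 3 lay near the first ranks in each replicate, with the lowest rank in replicate 2 for gish and Sox14. At Atf3, a bZIP transcription factor gene, the peak 241 bp upstream (632) ranked 74, 33 and 30, the widest spread among the 15. The remaining upstream peaks of the 15 lay by CG1635 (628), the prohormone convertase gene amon (610), the transporter gene MFS10 (586) and the reticulon gene Rtnl1 (582), which shapes the endoplasmic reticulum.

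**Figure D4:**
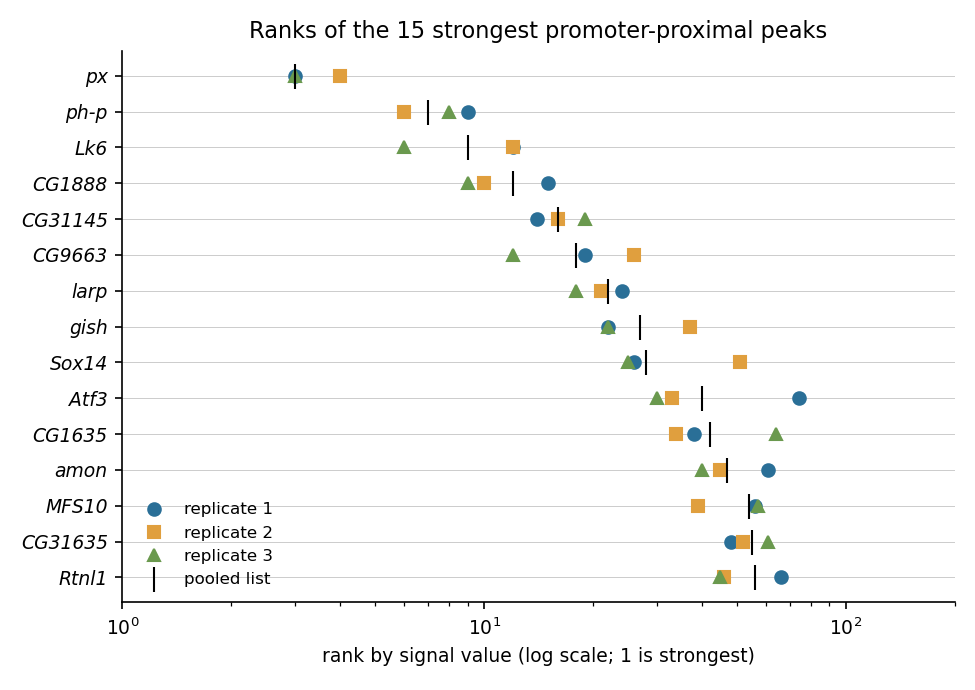
Rank by signal value (x axis, log scale, 1 is strongest) of the 15 strongest promoter-proximal peaks, named by their nearest gene, in replicates 1 to 3 (symbols) and in the pooled list (bar). Every peak ranks within the first 100 of each replicate; Atf3, at 74, 33 and 30, spreads most among those named in the text.

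The gene that encodes the tagged factor itself had 2 promoter-proximal peaks, both upstream. The one 430 bp upstream was intergenic, with a pooled signal value of 321 and values of 98.0, 98.5 and 133 in replicates 1, 2 and 3, where its ranks ran from 157 in replicate 3 to 308 in replicate 1. The one 732 bp upstream of its nearest NK7.1 TSS lay in an intron, with a pooled value of 163 and values of 58.8, 66.7 and 45.5, where it ranked 897, 472 and 1486. The first peak was thus above the second in every replicate. Whether reads from the transgene contribute to these peaks was not tested.

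Developmental regulators were among the genes next to promoter-proximal peaks. In all, 546 of the 13945 coding genes (3.92%) were the nearest gene of at least 1 such peak. Of 118 developmental transcription factor genes, 12 (10.2%) had one, with 15 peaks that were all upstream, 11 of them supported by all 3 replicates. Over all promoter-proximal peaks, 72.8% were upstream and 64.2% were supported by all 3. The strongest lay by Sox14, by cbt, a zinc-finger factor gene (361 bp upstream, signal value 418, ranks 139, 122 and 95), by fkh, a FoxA factor gene of the gut and salivary gland (240 bp, 385, ranks 215, 153 and 110), and by bowl, of the odd-skipped family (278 bp, 326, ranks 160, 422 and 218). The others lay by NK7.1, org-1, lola, bcd, peb, aop, ush and so, with signal values from 92.8 at so to 321 at NK7.1. NK7.1, lola and aop each had 2, so the 15 include both peaks at the gene of the tagged factor.

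Signalling genes held 18 promoter-proximal peaks by 15 of 93 genes (16.1%), and 15 of the 18 were upstream. The EGF receptor ligand gene spi had 3. Its strongest, 208 bp upstream with signal value 451, ranked 119, 60 and 134 in replicates 1, 2 and 3. InR, the insulin receptor gene, had a peak 646 bp upstream (434, ranks 117, 133 and 89), sgg, the GSK3 kinase gene of the Wnt pathway, had one 222 bp upstream (399, ranks 125, 131 and 173), and Mad, the Smad gene of the Dpp pathway, had one 649 bp upstream (263, ranks 333, 463 and 247). These 4 genes act in different pathways, and all 4 peaks, picked as the strongest of the genes matched, were intronic and supported by every replicate. Genes were matched by symbol, and Raf, listed under its older symbol phl, was missed and is in none of these counts. Its peaks lay 798 bp downstream in the 5' UTR (329, above Mad) and 999 bp downstream (183), both supported by all 3 replicates. Of the 18 peaks, 10 were supported by all 3 replicates, against 64.2% of all promoter-proximal peaks. The median signal value of the 18 was 121, against 150 for the whole class. The weakest of the 18 lay by aos, an inhibitor of the EGF receptor.

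Cytoskeleton and adhesion genes held 10 peaks by 9 of 63 genes (14.3%), and 7 of the 10 were upstream. The strongest lay by Msp300, a nesprin gene of muscle (367 bp upstream, signal value 377, ranks 164, 177 and 128), Act5C, a cytoplasmic actin gene (623 bp, 257, ranks 304, 373 and 341), sls, a titin-like gene (265 bp, 223, ranks 973, 253 and 569), and jar, the myosin VI gene (482 bp, 222, ranks 560, 390 and 446). The first 2 were stable across replicates, while sls was lower in replicate 1. Chromatin regulator genes held 7 peaks by 5 of 60 genes (8.33%), and 4 of the 7 were upstream. These genes were ph-p and ph-d above, nej, the CBP acetyltransferase gene (695 bp upstream, signal value 193), and, with weaker peaks, mod(mdg4) and Trl.

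The ribosomal and translation factor lists held no promoter-proximal peak, while the other lists held some, against 3.92% of all coding genes. None was nearest to a ribosomal protein gene (0 of 93), a mitochondrial ribosomal protein gene (0 of 73) or a translation factor gene (0 of 54). Of the 93 ribosomal protein genes, 55 did have a reproducible summit of any class within 1 kb. The same held for 2 of 73 mitochondrial ribosomal protein genes and 10 of 54 translation factor genes. It also held for 16 of 118 developmental transcription factor genes, 24 of 93 signalling genes and 17 of 63 cytoskeleton and adhesion genes. For chromatin regulator genes the count was 19 of 60, and for proteasome and ubiquitin genes 9 of 77. Cell cycle genes had 6 of 53, nuclear receptor and ecdysone genes 4 of 31 and chaperone genes 7 of 40. The share over all coding genes is not given here, so these counts are not set against it. Proteasome and ubiquitin genes held peaks by 2 of 77 genes (2.60%), among them Usp10, a deubiquitinase gene, with a peak 326 bp upstream (signal value 109). Of 53 cell cycle genes 1 had a peak, Cdk4 (613 bp upstream, 139), and of 31 nuclear receptor and ecdysone genes 1 had a peak, Hnf4 (416 bp upstream, 146). Chaperone genes held 4 peaks by 2 of 40 genes (5.0%), mrj, a DnaJ-type chaperone gene (278 bp upstream, 370), and stv, a co-chaperone gene (434 bp upstream, 122). These counts are descriptions without a test, and the lists differ in gene length and in numbers of TSSs.

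Most genes had a single promoter-proximal peak. Of the 546 genes, 477 had 1, 59 had 2, 9 had 3 and 1 had 4. The gene with 4 was Ptpmeg2, a protein tyrosine phosphatase gene on the X chromosome with several promoters. Its peaks lay 223, 164, 164 and 846 bp upstream of their nearest TSS, all intronic, with signal values of 404, 326, 239 and 99.6. The first 3 were supported by every replicate and the weakest by 1. The cAMP phosphodiesterase gene dnc had 3, at 308, 293 and 357 bp upstream of 3 TSSs spread along the gene, with signal values of 477, 194 and 124. Thus the 3 peaks of dnc and the 3 strongest of Ptpmeg2 lay 164 to 357 bp upstream of separate promoters.

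The other genes with 3 peaks were spi, mrj, Svil, CAP, CHES-1-like, Baldspot, Trpm and shep. The distances differed more in this group. Svil, an actin-binding supervillin gene, had peaks 980 and 724 bp downstream (signal values 215 and 128) and 217 bp upstream (197). CAP, of the vinexin adaptor family, had peaks 458 and 349 bp upstream (233 and 163) and 822 bp downstream (180), and the forkhead factor gene CHES-1-like had peaks 373 and 736 bp upstream (181 and 150.9) and 213 bp downstream (279). At Trpm, a cation channel gene, all 3 were downstream (154, 843 and 156 bp, with 282, 145 and 109). The RNA-binding protein gene shep had peaks 285 bp downstream (134) and 203 and 507 bp upstream (122 and 100). Overlapping peaks raised some of these counts. At spi, mrj and Baldspot, a fatty acid elongase gene, 1 pair of the 3 peaks was 202 bp apart and drew on the same replicate peaks.

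Some genes had both a promoter-proximal and a core promoter peak. Of the 546 genes, 41 (7.51%) were also the nearest gene of a core promoter peak, which is 12.1% of the 338 genes with a core promoter peak. Over all coding genes, 2.42% were the nearest gene of a core promoter peak, and the overlap was not tested. The peaks were spread over all 6 chromosome arms, with 110 on 2L, 117 on 2R, 113 on 3L, 143 on 3R, 4 on chromosome 4 and 139 on X. The X held 22.2% of them and 14.8% of the low-ranked peaks under the same rule. Of the reproducible peaks on X, 30.7% were promoter-proximal, against 22.2% to 25.6% on the other large arms, and this difference was not tested.

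The edges of the distance rule fell within a continuous range of positions. Just inside the lower edge lay peaks at the first position allowed upstream of the Hedgehog receptor gene ptc (signal value 95.8) and 152 bp upstream of CG1635 (628). Just outside it lay peaks 149 bp upstream of CG5096 (139) and 150 bp downstream of Trl (241). At the upper edge the peaks inside lay 998 bp downstream of eas (173) and 999 bp downstream of Raf (183), and those outside lay 1001 bp downstream of Ndae1 (120) and 1001 bp upstream of CG9801 (107).

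Summits of promoter-proximal peaks were poor in GC. The median GC content within 50 bp of the summit was 34.7%, against 40.6% in an equal window centred 500 bp further from the nearest TSS, called the far flank. The summit was lower in 413 peaks and higher in 195, a median difference of -5.94 percentage points, with p = 5.72e-19 in an exact sign test, two-sided. Low-ranked summits under the same rule stood the other way, with a median of 46.5% at the summit and 42.6% in the far flank. Core promoter summits had 42.6%, against 41.6% in their far flanks (exact sign test p = 0.412). The dip was seen on both sides of the gene start. It was 33.7% against 40.6% in the 456 upstream peaks and 36.6% against 40.6% in the 170 downstream peaks (exact sign test p = 6.37e-17 and 0.000944).

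In the strongest peaks of replicates 1, 2 and 3 the median summit GC content was 33.7%, 34.7% and 36.6%, a mean of 34.98 ± 1.51% (SD, n = 3). Their far flanks had 41.6%, 40.6% and 40.6%, a mean of 40.9 ± 0.572%. The summit was the lower of the pair in all 3 replicates. Towards the TSS the sequence was richer in GC than on the far side, with a median of 43.1% in the window 500 bp on that side.

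**Figure D5:**
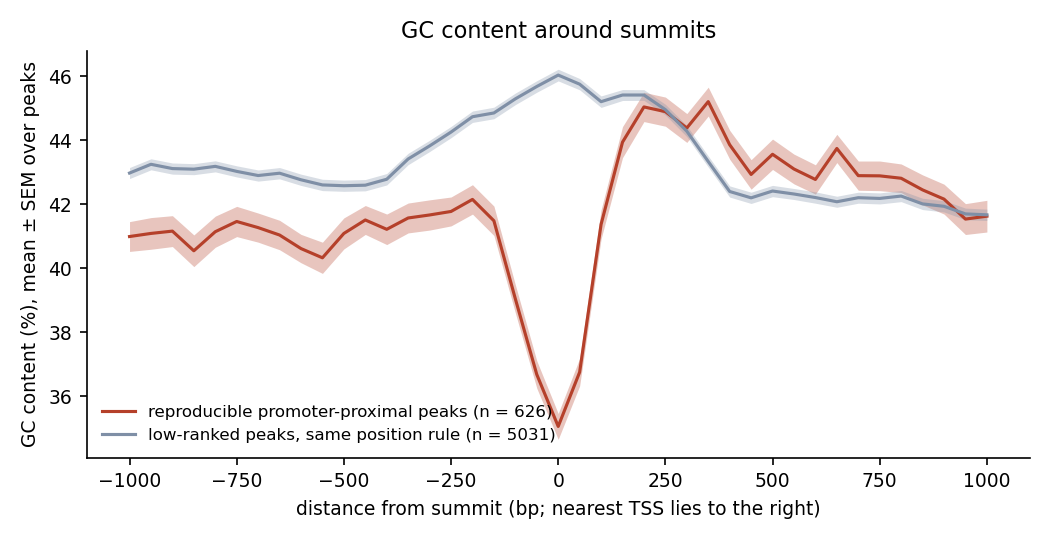
Mean GC content (y axis, %, shaded SEM over peaks) by distance from the summit (x axis, bp), with each peak turned so that the nearest TSS lies to the right. Promoter-proximal peaks (red, n = 626) dip at the summit to values below both flanks, while low-ranked peaks under the same rule (grey, n = 5031) rise there.

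No known binding word passed the test for a difference between summits and far flanks. Of 8 words chosen for factors of interest, counted on either strand within 50 bp of the summit, 0 passed an adjusted p of 0.05 in an exact McNemar test, and 0 had an unadjusted p under 0.05. The homeodomain words TAATTG and TAATTA stood at 8.79% of summits against 11.2% of far flanks (adjusted p = 0.383, exact) and 6.71% against 6.55% (adjusted p = 1, exact). These words occurred in 5.67% and 2.99% of windows of the same length at all coding TSSs, where composition was not matched. The odds ratio of summits to far flanks was 0.769 for TAATTG. Of 191 other words with 1 G or C, 190 had at least that value (median 1.37). For TAATTA it was 1.03, and all 7 comparison words without G or C had at least that value (median 1.34), as a description. The GAGA factor word GAGAG stood at 13.6% against 17.1% of far flanks, the Zelda word CAGGTA at 3.04% against 1.44%, and the GATA word AGATAA at 7.51% against 7.19%. The E-box CACGTG stood at 1.44% against 1.92%. Words of core promoters were scarce at these summits. ATCGAT, the core of the DREF site, occurred in 1.76% of the 626 summits and in 3.51% of far flanks, with 9.65% of core promoter summits and 11.1% of all coding TSSs. GTCACAC, the core of Motif 1, occurred in 0.639% of summits and the same share of far flanks, with 4.39% of core promoter summits and 5.41% of all coding TSSs. None of the 8 words occurred in the windows printed above.

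Among all words of 6 bases, those rich in A and T were commoner at summits. Of all such words, each counted with its reverse complement, 30 (1.44%) were more frequent at summits than at far flanks and 26 (1.25%) were less frequent, at an adjusted p under 0.05 in the exact McNemar test, adjusted over the full set. Of the 30, 23 held at most 1 G or C, while each of the 26 held at least 3. AAATAT led, in 30.2% of summits against 17.9% of far flanks (adjusted p = 0.000702, exact), and it occurred in 14.7% of low-ranked summits and 15.4% of all coding TSSs. Among other reproducible peaks it occurred in 30.9% of summits over 1 kb from a TSS, 26.9% of summits with coding TSSs of both strands nearby and 19.6% of core promoter summits. CTTAAA occurred in 15.5% against 7.03% of far flanks, GAAATA in 17.7% against 8.79%, and TCTTAA in 10.7% against 3.83%. Thus TCTTAA showed the greatest ratio of these 4. TAAATA occurred in 29.6% against 18.7%, TTAAAA in 27.2% against 16.8%, ATTTTA in 25.6% against 16.0%, ATTTAC in 14.7% against 7.03% and ATGTAA in 10.7% against 4.47%. As a description, these were found in fewer low-ranked summits, at 12.05%, 13.2%, 12.1%, 6.28% and 5.61% in the same order. They occurred in other reproducible peaks too, and TTAAAA was found in 31.5% of summits with coding TSSs of both strands nearby. GGGGGA was the leading word of the other direction, in 0.479% of summits against 4.95% of far flanks.

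One of the 10 leading words did not follow that composition. ACAGTG, with 3 G or C, occurred in 9.11% of promoter-proximal summits against 3.51% of far flanks (odds ratio 3.19, adjusted p = 0.00418 in the exact McNemar test). It occurred in 10.5% of core promoter summits, 8.96% of summits over 1 kb from a TSS, 5.90% of low-ranked summits and 5.33% of all coding TSSs, so it was not confined to promoter-proximal peaks. All 10 leading words were commoner at summits than at far flanks in the strongest peaks of 3 of 3 replicates, though the pooled list that chose them includes the same libraries. At least 1 of the 10 was present in 490 of 626 summits (78.3%), against 73.7% of summits with coding TSSs of both strands nearby, 75.9% of summits over 1 kb from a TSS, 62.6% of core promoter summits and 44.7% of low-ranked summits, as a description without a test. The share was thus close to those of reproducible peaks over 1 kb from a TSS or with coding TSSs of both strands nearby. The 10 words were chosen in these same 626 summits. Any comparison of their shares with other groups of peaks is therefore tilted towards this class. The counts of words changed with the peaks used. When only peaks supported by both other replicates were used, leaving out replicate 1, 2 or 3 gave 9, 12 or 20 words more frequent and 4, 13 or 13 less frequent. These sets were smaller, with 458, 446 and 457 peaks against 626.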

How the data were processed

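The authors deposited narrowPeak lists on dm6, called on each replicate and on the pooled libraries against a control. They also deposited a reproducible list thresholded by the irreproducible discovery rate, per the text listings deposited with the libraries. The pooled list is labelled as peaks and background, as input for that thresholding. The deposited signal value is the peak caller's own score, and the deposited −log10 q-value was capped, so peaks were ranked by the signal score. The summit came from the offset that the authors give in each peak's line. For 520 of the 626 promoter-proximal peaks it was the centre of the interval, and 517 of the intervals had the same width of 420 bp. Distances printed to 1 bp follow from these offsets and are not a measure of their precision. Aligner, peak caller and depth scaling, not given in the sources used here, remain unknown. The reproducible set equals the 2475 strongest pooled peaks.

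Gene models were those of Ensembl 115 and bases those of the Release 6 assembly (NCBI RefSeq). Coordinates are dm6 and 1-based. The 6 comparisons of shares used two-sided Fisher's exact tests and p-values adjusted by Benjamini-Hochberg over the 6, Wald 95% intervals for odds ratios and Clopper-Pearson intervals for shares. Words were compared by the exact McNemar test, adjusted over the 8 chosen words or over all words of 6 bases. Named genes are the nearest genes of the 15 strongest peaks, up to 4 peaks per gene list, genes with 3 or more peaks, peaks at the edges of the rule, and NK7.1. Names added after the values were seen are the 5 coding-exon peaks, CG17065, the non-coding neighbours and the weaker peaks of the lists. Values of 1 gene that the naming rule selects are not reported here. The peak class and the gene lists were chosen with earlier results of these data known. The scripts were tested on simulated data. Python 3.11.15, NumPy 2.4.6, SciPy 1.17.1, pandas 2.3.3 and Matplotlib 3.10.9 were used.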

Additional observations from a re-analysis of the deposited data

How the results depend on the processing

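The promoter-proximal share, the upstream share, the coding-exon share, the share with a neighbouring summit and the GC difference kept their direction and their side of the threshold of 0.05 under every alternative run for them, as 10, 12, 10, 12 and 8 alternatives. For the first 3 of these shares the alternatives include the peak midpoint in place of the summit. That setting could change little, because the summit was already the centre of the interval in 520 of the 626 peaks. Support by all 3 replicates missed the threshold in peaks above the median signal value, where the odds ratio was 1.46, and in the 4 signal quartiles, where it was 2.86, 1.16, 1.21 and 7.80. The share with a non-coding TSS, never past the threshold, turned direction with odds ratios of 1.18 (rule from beyond 100 bp) and 1.01 (peak midpoint).

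The words of 6 bases more and less frequent at summits numbered 2 and 3 with 25 bp on either side, 52 and 42 with 100 bp, 125 and 145 against the flank towards the TSS, and 5 and 3 in peaks above the median signal. Leaving out a replicate gave 9 to 20 more frequent and 4 to 13 less frequent. The sets differed in size, with 355 peaks above the median signal and 446 to 458 when a replicate was left out, against 626. The cause of these changes was not tested.

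None of the 8 chosen words passed the threshold under the 11 alternatives, and several odds ratios turned direction. They were 0.972 for TAATTA and 0.959 for AGATAA (100 bp windows), 0.905 for TAATTA and 1.80 for CACGTG (flank towards the TSS), and 1.02 for TAATTG, 0.800 for TAATTA, 1.12 for GAGAG and 0.818 for CAGGTA (flank at 1 kb). CAGGTA gave 0.667 in peaks above the median signal. Leaving out each replicate in turn gave 0.822 to 1.02 for TAATTG, 0.931 to 1.11 for TAATTA, 0.800 to 1.29 for CACGTG and 0.909 to 1.07 for AGATAA. Against low-ranked summits they were 1.21 for TAATTG and 1.15 for CACGTG.

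No paired analysis was possible because the series holds 1 group, so no groups share replicate numbers. Strongest and remaining peaks were compared within each replicate. Depth and control libraries were not available to any test, and 3 replicates cannot give a permutation p under 0.25.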
